A study of Mus musculus with 6 samples.

Results

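The genes described here make and remove reactive oxygen in the cell: the subunits of the phagocyte NADPH oxidase, the superoxide dismutases and catalase, the peroxiredoxin, thioredoxin and glutathione systems, and the NRF2 and haem oxygenase genes. They were taken from the deposited table by gene symbol alone (symbols beginning with Prdx, Txn, Gpx, Gst, Mgst, Sod, Gcl, Glrx, Nqo, Hmox, Ncf, Cyba or Cybb, and a few single genes such as Cat, Gsr, Gss, Nfe2l2, Keap1 and Srxn1), which gave 50 of the 8191 genes listed. By role they were 3 NADPH oxidase subunits, 4 superoxide dismutase or catalase genes, 5 genes of the peroxiredoxin system, 12 of the thioredoxin family, 9 of the glutathione peroxidase and glutathione cycle, 11 glutathione S-transferases, and 6 NRF2, haem oxygenase and quinone reductase genes. Cybb, Ncf1, Gpx1, G6pdx and the methionine sulfoxide reductases were not analysed here.

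RNA was sequenced from myeloid-derived suppressor cells (MDSCs), immature CD11b+Gr1+ myeloid cells that restrain T cells, taken from the spleens of old mice. The 3 groups, each of 2 samples, were WT BALB/c mice and the Tnfr1-/- and Tnfr2-/- strains, both kept on that background, which lack one or the other receptor for TNF. The mice were 18 to 24 months old, the MDSCs of 5 mice were pooled for each sample, and the cells were neither cultured nor treated after isolation. Expression was deposited as FPKM, fragment numbers divided by transcript length and by library size, a scale per length on which levels of different genes can be set side by side.

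The study asked what the loss of TNFR2 does to MDSCs of old animals. Phagocytes make superoxide on purpose: the NADPH oxidase, a membrane complex of gp91phox and p22phox joined by cytosolic subunits such as p40phox and by a Rac protein, passes electrons from NADPH to oxygen, and MDSCs are known to use these oxidants against T cells. Superoxide dismutases turn superoxide into hydrogen peroxide, and catalase, peroxiredoxins and glutathione peroxidases remove the peroxide with electrons that thioredoxin and glutathione carry from NADPH. The transcription factor NRF2, held down by KEAP1, binds antioxidant response elements and drives many of these genes when oxidants or electrophiles accumulate.

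The element that NRF2 binds has the core TGACNNNGC, and these letters were searched on both strands of the 250 bases before each transcription start in RefSeq (GRCm38.p6). Of the 50 genes, 42 had such a promoter, 57 promoters in all, and 8 of the 57 (14.0%) held the core, against 11.8% of the 8420 promoters of listed genes and 10.2% of all 32851 promoters. The 8 genes were Prdx1, Txnrd1, Gclm, Nfe2l2, Sod1, Mgst1, Gsta3 and Gstm5. GAGGAAG, a core of the kind bound by the myeloid ETS factor PU.1, was in 7 of the 57 promoters (12.3%), against 10.5% of those of listed genes and 10.6% of all promoters. The stretches of 4 of the 8 genes are shown, each 5′ to 3′ on the strand of the gene, with the matched letters in capitals (read on the opposite strand in Prdx1, Txnrd1 and Gclm). Sod1, Mgst1, Gsta3 and Gstm5 also hold the core and are not shown. A link between the core and a change in expression was not tested. A match describes these letters and is not a bound site.
Prdx1, chr4:116685446-116685494, plus strand: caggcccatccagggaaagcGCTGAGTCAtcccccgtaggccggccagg
Txnrd1, chr10:82859094-82859142, plus strand: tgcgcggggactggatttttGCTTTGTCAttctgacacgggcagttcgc
Gclm, chr3:122245403-122245451, plus strand: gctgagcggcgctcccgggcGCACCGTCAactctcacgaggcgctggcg
Nfe2l2, chr2:75704875-75704913, minus strand: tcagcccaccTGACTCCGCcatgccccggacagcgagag

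Some properties of the table bear on each value below. The authors listed only genes whose deposited p-value over the 3 genotypes was at most 0.05, so each of the 50 genes had already been picked for a difference on these same 6 samples. The listed genes summed to between 344714 and 346870 FPKM in the WT samples and to between 133604 and 155248 FPKM in the knockout samples, and the depth behind each value is unknown. Tnfrsf1b, which encodes TNFR2, stood at 111.8 and 114.9 FPKM in WT, 47.8 and 69.6 FPKM in Tnfr1-/- and 11.3 and 14.3 FPKM in Tnfr2-/- MDSCs. Tnfrsf1a, which encodes TNFR1, was not analysed here.

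The WT libraries went against the MDSC label in their marker genes. Ly6c1, which encodes a part of the Gr1 epitope, was at 0.16 and 0.064 FPKM in WT and between 95.8 and 178 FPKM in the 4 knockout samples. The 3 listed granulocyte markers (of 13) summed to between 13.7 and 15.4 FPKM in WT and between 1522 and 3070 FPKM in the knockouts. All 12 macrophage markers were listed, and they summed to between 4802 and 5252 FPKM in WT and between 353 and 729 FPKM in the knockouts, with Marco at 409 and 372 FPKM in WT and under 1 FPKM in each knockout sample. The 5 listed B cell markers (of 9) summed to between 46.8 and 47.0 FPKM in WT and between 174 and 396 FPKM in the knockouts. Itgam, Ly6g, S100a8 and S100a9 were not analysed here. Genotype, the cells in the sample and the making of the WT values moved together, so they cannot be told apart in any comparison with WT, nor can fewer cells of a type and less RNA per cell. On the deposited scale the log2 changes between the knockouts do not use the WT values. WT values still enter that comparison through the choice of the listed genes and the shared estimate of the spread. Where values are rescaled below, they enter through the scaling too.

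Against WT, most genes of this machinery were lower in both knockouts, with 2 exceptions that were higher, Ncf4 and Txnl4a. A gene is called here when limma's moderated test on log2(FPKM + 1), fitted to all 8191 genes and all 6 samples, gave a Benjamini-Hochberg adjusted p under 0.05 and the fold change was over 1.5. In Tnfr2-/- against WT MDSCs 2 of the 50 genes were called higher and 43 lower, where 13.6% of all listed genes were called higher and 57.1% lower. In Tnfr1-/- against WT MDSCs 2 were called higher and 46 lower, where 14.1% of all listed genes were called higher and 60.7% lower. The median log2 change of the 50 genes was −1.26 in Tnfr2-/- and −1.51 in Tnfr1-/-, and that of all listed genes −0.74 and −0.83. The FPKM of the WT samples did not overlap with those of either knockout for any of the 50 genes, which also held for 98.3% (Tnfr2-/-) and 99.0% (Tnfr1-/-) of all listed genes.

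Because the whole table shifted between WT and knockouts, the values were also divided by median-ratio size factors, which moved the median of all listed genes to −0.032 in Tnfr2-/- and −0.033 in Tnfr1-/-. On that scale the median of the 50 genes was −0.40 and −0.46, so they stayed below the table as a whole. With this scaling 3 genes were called higher and 18 lower in Tnfr2-/- against WT (21.8% and 21.0% of all listed genes), and 2 higher and 19 lower in Tnfr1-/- against WT (23.3% and 22.1%). Of the genes called lower on the deposited scale, 18 of 43 in Tnfr2-/- and 19 of 46 in Tnfr1-/- were called lower after scaling too, and the other 25 and 27 were not called. The lowest scaled log2 changes in Tnfr2-/- were those of Gstm1 (−2.83), Srxn1 (−2.71), Prdx1 (−2.62), Gstm2 (−2.56), Prdx2 (−2.35) and Cat (−1.74). Ncf4 and Txnl4a were called higher on either scale in both comparisons.

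**Figure D1:**
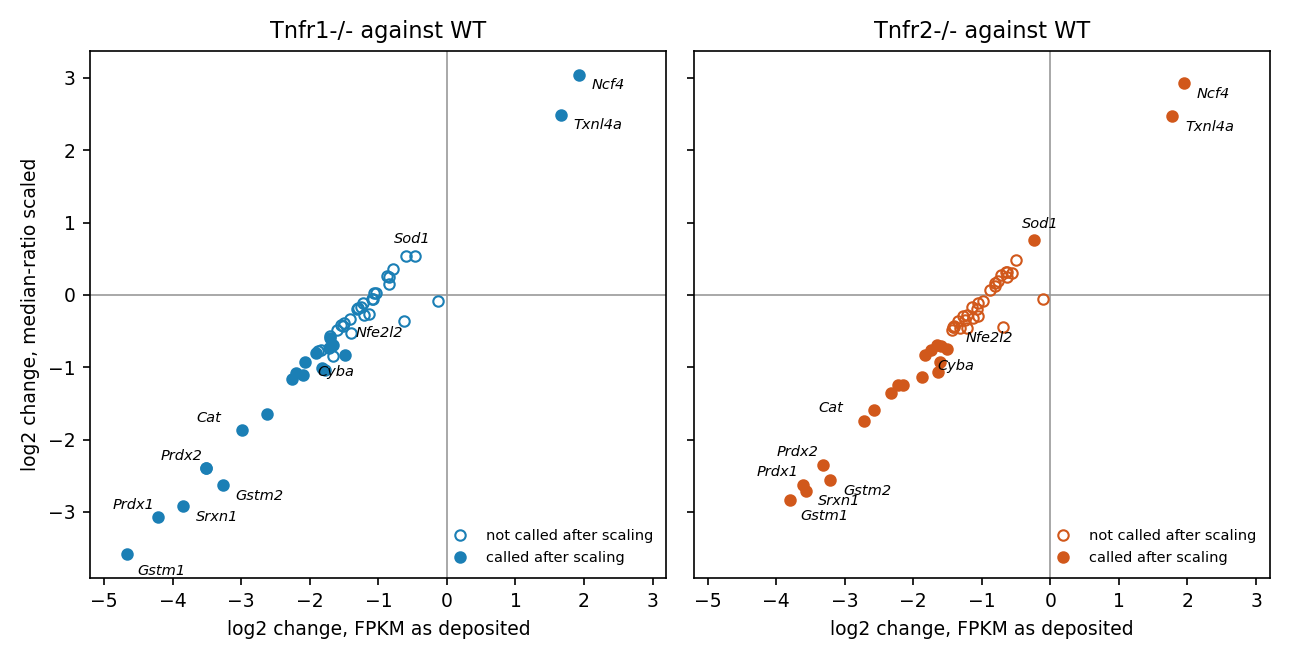
Each point is 1 of 49 genes, with the log2 change against WT in FPKM as deposited on the horizontal axis and after median-ratio scaling on the vertical axis, for Tnfr1-/- (left) and Tnfr2-/- (right) MDSCs. Filled points were called after scaling: 18 genes lower and 3 higher in Tnfr2-/-, and 19 lower and 2 higher in Tnfr1-/-, with Ncf4 and Txnl4a alone at the upper right and Gstm1 lowest in both panels.

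Listed subunits of the NADPH oxidase did not move together, as Cyba and Ncf4 show. Cyba (chromosome 8, 122424776 to 122432930, minus strand, GRCm38) encodes p22phox, the membrane partner of gp91phox. It was at 1095 and 1015 FPKM in WT, 285 and 221 FPKM in Tnfr1-/- and 325 and 270 FPKM in Tnfr2-/- MDSCs. Its mean was 3.55 times lower in Tnfr2-/- than in WT (log2 change −1.83, standard error 0.19, limma adjusted p = 0.000582) and 4.17 times lower in Tnfr1-/- (log2 change −2.07, adjusted p = 0.000346). The WT samples lay far above the other 4, which overlapped, and Cyba remained called lower after scaling in both comparisons.

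Ncf4 (chromosome 15, 78244801 to 78262580, plus strand) encodes p40phox, which binds phosphoinositide on phagosomes and supports the assembled oxidase there. Its FPKM were 45.0 and 46.3 in WT, 197 and 157 in Tnfr1-/- and 201 and 161 in Tnfr2-/- MDSCs. It was higher in both knockouts, by a log2 change of 1.95 in Tnfr2-/- (standard error 0.16, limma adjusted p = 0.000302) and 1.92 in Tnfr1-/- (adjusted p = 0.000278), and the knockouts did not separate from each other (log2 change 0.03, standard error 0.16). Among the listed genes of each sample it ranked at the 85.9 and 86.4 percentile in WT and between the 98.5 and 99.0 percentile in the knockouts, a measure that no scaling of a sample can move. Within each sample Ncf4 was 0.041 and 0.046 times as high as Cyba in WT, 0.69 and 0.71 times in Tnfr1-/- and 0.62 and 0.59 times in Tnfr2-/- MDSCs. The ratio of these transcripts thus differed between WT and knockouts whatever factor each sample is scaled by.

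Of 19 other genes of oxidase assembly and control, 6 were listed, and against WT 3 were called higher and 3 lower in each knockout. For all listed genes the shares were 13.6% higher and 57.1% lower in Tnfr2-/-, and 14.1% and 60.7% in Tnfr1-/-. Rac2, the Rac protein of the leukocyte oxidase, had a mean of 108 ± 2.34 FPKM in WT, 308 ± 19.2 in Tnfr1-/- and 280 ± 65.4 in Tnfr2-/- MDSCs (SD, n = 2). Rac1, its more widely expressed relative, went the other way on the deposited scale, with 245 ± 4.75 FPKM in WT, 107 ± 5.31 in Tnfr1-/- and 138 ± 1.14 in Tnfr2-/-, a change that was not called after scaling (log2 changes −0.05 in Tnfr1-/- and 0.16 in Tnfr2-/-). Cdc42 and Prkcb were also called higher, and Prkcd and the proton channel gene Hvcn1 were called lower on either scale in both knockouts. Rac2, Ncf4, Cdc42 and Prkcb were thus higher in the knockout libraries, while Cyba, Prkcd and Hvcn1 were lower there. Against WT those libraries were higher in the listed granulocyte and B cell markers and in 4 of the 5 listed monocyte markers. They were lower in the macrophage markers. The part of any of these cells in the result was not tested.

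The superoxide dismutases and catalase differed in size of change. Cat (chromosome 2, 103453849 to 103485160, minus strand) encodes catalase, which splits hydrogen peroxide into water and oxygen. It was at 164 and 149 FPKM in WT, 18.77 and 18.79 FPKM in Tnfr1-/- and 22.2 and 23.7 FPKM in Tnfr2-/- MDSCs. It was 6.82 times lower in Tnfr2-/- (log2 change −2.72, standard error 0.077, limma adjusted p = 1.62e-05) and 8.33 times lower in Tnfr1-/- than in WT (−2.99, adjusted p = 1.22e-05), and it stayed called lower after scaling (−1.74 and −1.87).

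Sod1, the cytosolic copper and zinc enzyme, was at 135 and 142 FPKM in WT, 89.2 and 94.1 FPKM in Tnfr1-/- and 107 and 129 FPKM in Tnfr2-/- MDSCs. Its change was among the smallest of the 50 genes, called lower in Tnfr1-/- (log2 change −0.59, standard error 0.11, limma adjusted p = 0.00460) and not called in Tnfr2-/- (−0.23, adjusted p = 0.103). After scaling the sign turned, and Sod1 was called higher in Tnfr2-/- (0.75, limma adjusted p = 0.00142). In Tnfr1-/- it was not called (0.54, limma adjusted p = 0.00472, under the fold threshold). The scaled log2 change between the knockouts was 0.22 (limma adjusted p = 0.262), not called. Within each sample Sod1 was 0.82 and 0.95 times as high as Cat in WT and between 4.75 and 5.47 times as high in the 4 knockout samples. The Sod1 transcript thus lay below that of Cat in WT, in WT replicate 2 only slightly, and above it in the knockouts, whatever the scale.

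Sod2 encodes the manganese enzyme of mitochondria. Its FPKM were 37.5 and 35.4 in WT, 10.8 and 8.26 in Tnfr1-/- and 9.07 and 18.2 in Tnfr2-/- MDSCs, and it was called lower in Tnfr2-/- (log2 change −1.43, standard error 0.32, limma adjusted p = 0.00888) and in Tnfr1-/- (−1.84, adjusted p = 0.00333). Neither call held after scaling (−0.48 and −0.76). The Tnfr2-/- replicates of Sod2 were 2-fold apart. Sod3, the secreted enzyme, was nearly absent, at 0.079 and 0.11 FPKM in WT, listed at 0 in both Tnfr1-/- samples and in Tnfr2-/- replicate 1, and at 0.024 FPKM in Tnfr2-/- replicate 2.

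NRF2 and its partner were both called lower on the deposited scale and on neither comparison after scaling. Nfe2l2 (chromosome 2, 75675513 to 75704641, minus strand), the gene of NRF2, was at 103 and 108 FPKM in WT, 32.6 and 40.9 FPKM in Tnfr1-/- and 43.2 and 34.7 FPKM in Tnfr2-/- MDSCs. This is a log2 change of −1.42 in Tnfr2-/- (standard error 0.16, limma adjusted p = 0.000719) and −1.51 in Tnfr1-/- (adjusted p = 0.000519), and −0.44 and −0.38 after scaling. Keap1, which marks NRF2 for degradation, was at 18.3 and 17.2 FPKM in WT, 8.47 and 7.88 FPKM in Tnfr1-/- and 8.22 and 11.5 FPKM in Tnfr2-/- MDSCs, with log2 changes of −0.80 in Tnfr2-/- and −1.03 in Tnfr1-/- that became 0.12 and 0.023 after scaling.

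Hmox1, the inducible haem oxygenase and a known target of NRF2, was the most expressed gene of this group. It was at 297 and 286 FPKM in WT, 83.6 and 94.2 FPKM in Tnfr1-/- and 133 and 97.7 FPKM in Tnfr2-/- MDSCs (log2 changes −1.71 in Tnfr1-/- and −1.35 in Tnfr2-/-, limma adjusted p = 0.000446 and 0.00110), and was not called after scaling (−0.57 and −0.36). Nqo1, the quinone reductase most often used as a readout of NRF2, was low throughout, at 6.89 and 5.43 FPKM in WT, 2.27 and 1.23 FPKM in Tnfr1-/- and 1.35 and 0.60 FPKM in Tnfr2-/- MDSCs. It had the largest fall of the group in Tnfr2-/- (log2 change −1.88, standard error 0.27, limma adjusted p = 0.00191) and was called there after scaling too (−1.13, adjusted p = 0.0238), while in Tnfr1-/- it was not called after scaling (−0.53). The remaining members, Hmox2 and Nqo2, were called lower in both knockouts before scaling, and Hmox2 in Tnfr1-/- after it (−0.60).

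**Figure D2:**
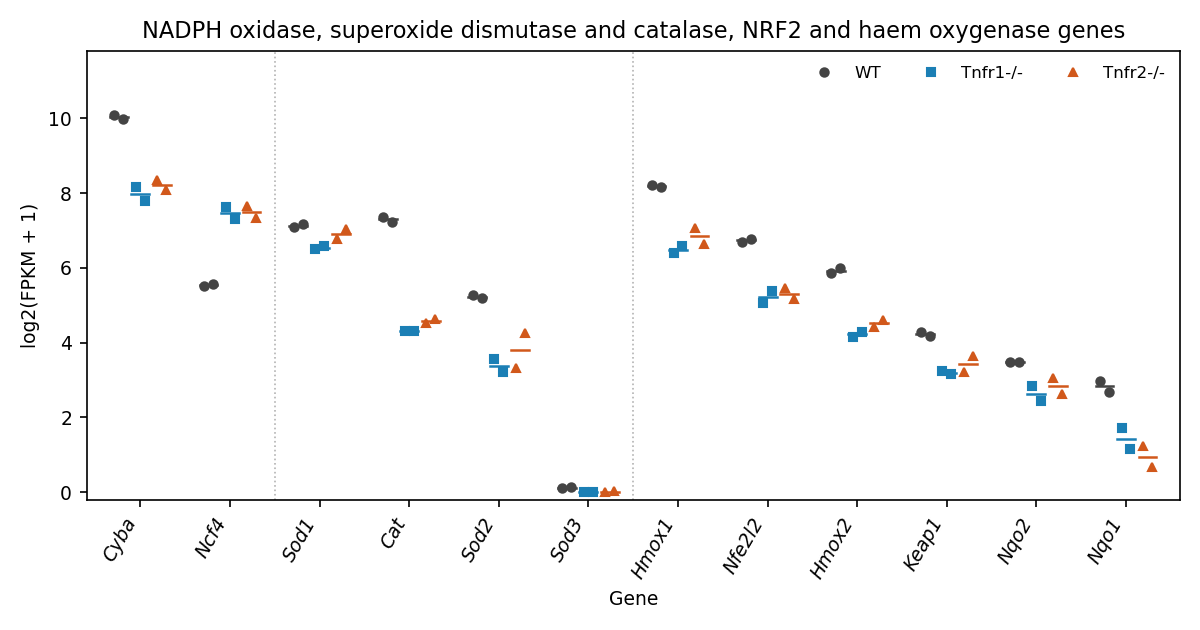
log2(FPKM + 1) of 2 NADPH oxidase subunits (left), superoxide dismutase and catalase genes (middle) and NRF2, haem oxygenase and quinone reductase genes (right) in each sample, where points are samples and short bars group means of 2. Ncf4 is the only gene shown whose WT samples (45.0 and 46.3 FPKM) lie below the knockouts, and Cat falls from 164 and 149 FPKM in WT to between 18.77 and 23.7 FPKM in the knockouts while Sod1 stays between 89.2 and 142 FPKM.

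Of 12 other genes that act with NRF2, 7 were listed, and 3 were called higher and 3 lower against WT in each knockout. The shares of all listed genes were 13.6% higher and 57.1% lower in Tnfr2-/-, and 14.1% and 60.7% in Tnfr1-/-. After scaling the shares were 21.8% higher and 21.0% lower in Tnfr2-/-, and 23.3% and 22.1% in Tnfr1-/-. Bach1, a repressor that competes with NRF2 at antioxidant response elements, was called higher, from 17.4 ± 0.65 FPKM in WT to 26.8 ± 2.44 in Tnfr1-/- and 33.4 ± 0.35 in Tnfr2-/- MDSCs (SD, n = 2), as were Bach2 and Nfe2. Nfe2l1, Maff and Rbx1 were called lower, and of these only Nfe2l1, in Tnfr2-/-, was called lower after scaling. Scaled, 4 of the 7 were called higher in each knockout: Bach1, Bach2, Nfe2 and also Cul3 (log2 changes 1.22 in Tnfr2-/- and 1.24 in Tnfr1-/-). Of 13 further genes known as NRF2 or iron targets, 9 were listed, 8 called lower (7 after scaling) and 1, Osgin1, higher in each knockout. The ferritin genes were the most abundant of them, with Fth1 at 12960 ± 22.1 FPKM in WT, 1038 ± 98.8 in Tnfr1-/- and 1104 ± 18.4 in Tnfr2-/- MDSCs. Blvra and Blvrb, the biliverdin reductases that act after haem oxygenase, were called lower on either scale in both knockouts.

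The 5 genes of the peroxiredoxin system were called lower in both comparisons (all listed genes: 57.1% in Tnfr2-/-, 60.7% in Tnfr1-/-). They had the lowest median log2 change of the role groups (−3.32 in Tnfr2-/- and −3.51 in Tnfr1-/-). Prdx1 (chromosome 4, 116685544 to 116700822, plus strand), the main cytosolic peroxiredoxin and the gene with the first promoter stretch above, was at 1457 and 1311 FPKM in WT, 74.5 and 72.8 FPKM in Tnfr1-/- and 84.5 and 148 FPKM in Tnfr2-/- MDSCs. It was the most expressed of the 50 genes in WT and 11.9 times lower in Tnfr2-/- (log2 change −3.61, standard error 0.27, limma adjusted p = 0.000234) and 18.8 times lower in Tnfr1-/- (−4.21, adjusted p = 0.000130). After scaling the changes were −2.62 and −3.07, both called. In the annotation 10.9% of the 50-base windows of its longest transcript also occur in other genes, so reads of other genes cannot be told apart there.

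Srxn1, sulfiredoxin, repairs overoxidized peroxiredoxins. It was at 28.5 and 27.5 FPKM in WT, 0.94 and 1.09 FPKM in Tnfr1-/- and 1.33 and 1.57 FPKM in Tnfr2-/- MDSCs (log2 changes −3.85 in Tnfr1-/- and −3.57 in Tnfr2-/-, standard error 0.10, limma adjusted p = 1.20e-05 and 1.52e-05). Its rank among the listed genes went from the 78.4 and 77.6 percentile in WT to between the 24.2 and 29.0 percentile in the knockouts. Prdx2, the peroxiredoxin abundant in red cells, went from 163 and 164 FPKM in WT to 14.2 and 12.7 FPKM in Tnfr1-/- and 12.4 and 19.1 FPKM in Tnfr2-/- MDSCs, and was called lower on either scale. Prdx3 of mitochondria and Prdx4 of the endoplasmic reticulum were called lower by smaller amounts (log2 changes −0.80 and −0.76 in Tnfr2-/-, −1.22 and −1.06 in Tnfr1-/-), and after scaling neither was called (0.17 and 0.19 in Tnfr2-/-, −0.12 and 0.029 in Tnfr1-/-).

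The 12 genes of the thioredoxin family differed in the size and direction of their change. Txn1, the cytosolic thioredoxin that recharges peroxiredoxins, was the most expressed, at 389 and 375 FPKM in WT, 244 and 201 FPKM in Tnfr1-/- and 252 and 213 FPKM in Tnfr2-/- MDSCs. Against WT this is a log2 change of −0.72 in Tnfr2-/- (standard error 0.15, limma adjusted p = 0.00672) and −0.78 in Tnfr1-/- (adjusted p = 0.00460), and 0.27 and 0.36 after scaling, not called. Within each sample Prdx1 was 3.75 and 3.50 times as high as Txn1 in WT, 0.31 and 0.36 times in Tnfr1-/- and 0.34 and 0.70 times in Tnfr2-/- MDSCs. The order of these transcripts thus differed between WT and knockouts.

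Txnrd1, thioredoxin reductase, passes electrons from NADPH to thioredoxin, and on log2(FPKM + 1) it had the largest fall of the family in Tnfr2-/-, while as a ratio of mean FPKM the less expressed Txnrd3 fell further (5.64 times lower, against 4.89 times for Txnrd1). It was at 79.0 and 73.3 FPKM in WT, 16.1 and 14.0 FPKM in Tnfr1-/- and 15.5 and 15.6 FPKM in Tnfr2-/- MDSCs (log2 changes −2.27 in Tnfr1-/- and −2.22 in Tnfr2-/-, standard error 0.090, limma adjusted p = 3.23e-05 and 3.94e-05), and was called lower after scaling too. Txnl4a was the only member of the family that rose, from 2.43 and 1.84 FPKM in WT to 8.90 and 8.89 FPKM in Tnfr1-/- and 9.11 and 10.3 FPKM in Tnfr2-/- MDSCs (log2 changes 1.67 in Tnfr1-/- and 1.78 in Tnfr2-/-, limma adjusted p = 0.000209 and 0.000196). Its product has the thioredoxin fold but is a protein of the spliceosome and no antioxidant enzyme. Of the 12 genes of the family, 10 were called lower in each comparison with WT. After scaling 2 were called lower in Tnfr2-/- (Txnrd1 and Txnrd3) and 3 in Tnfr1-/- (those and Txnrd2). Among all listed genes 57.1% (Tnfr2-/-) and 60.7% (Tnfr1-/-) were called lower, and 21.0% and 22.1% after scaling. The scaled counts of the family were thus near the share of the table. In Tnfr2-/- the scaled changes of Txnrd2 (−0.46) and of the mitochondrial thioredoxin Txn2 (−0.44) were of like size and neither was called.

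**Figure D3:**
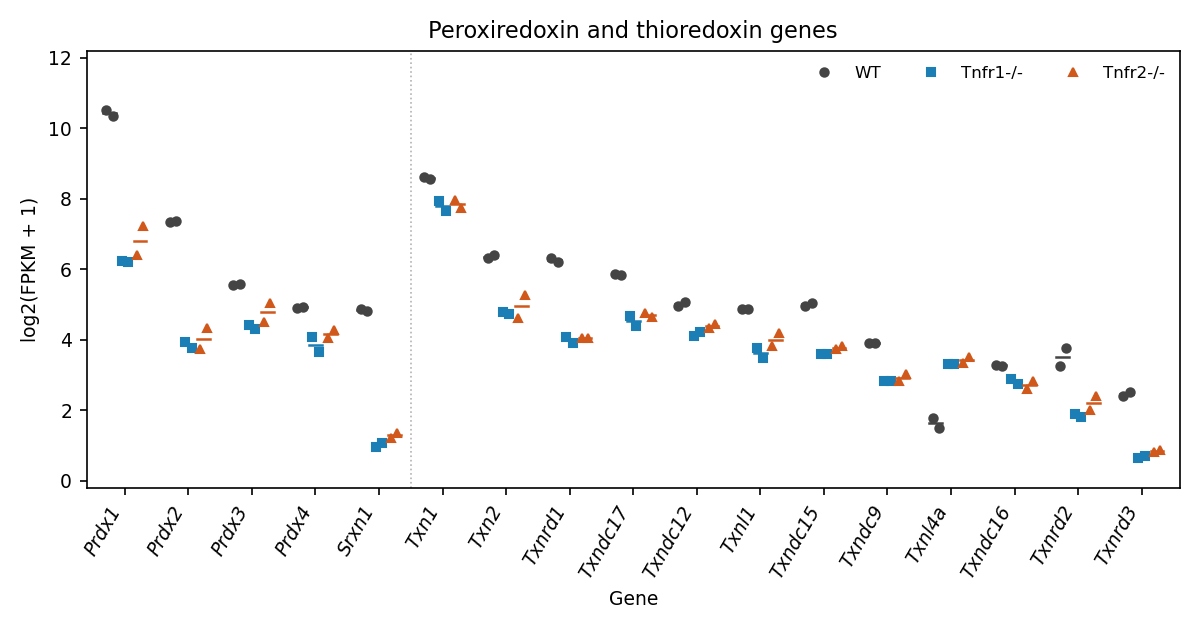
log2(FPKM + 1) of the peroxiredoxin system (left of the dotted line) and the thioredoxin family (right) in each sample, with points for samples and bars for group means of 2. Prdx1 leads in WT at 1457 and 1311 FPKM and lies under Txn1 in each knockout sample, and Txnl4a is the only gene with WT (2.43 and 1.84 FPKM) below the knockouts.

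The 9 genes of the glutathione peroxidase and glutathione cycle were called lower in both comparisons (all listed genes: 57.1% in Tnfr2-/-, 60.7% in Tnfr1-/-). Their median log2 change was −1.27 in Tnfr2-/- and −1.71 in Tnfr1-/-. Gpx4, which reduces lipid peroxides in membranes, was the most expressed of them, at 230 and 214 FPKM in WT, 52.5 and 42.6 FPKM in Tnfr1-/- and 64.0 and 66.5 FPKM in Tnfr2-/- MDSCs. It was called lower on either scale, with log2 changes of −1.75 in Tnfr2-/- (standard error 0.12, limma adjusted p = 0.000170) and −2.20 in Tnfr1-/- (adjusted p = 7.60e-05). Its level is uncertain, because 61.7% of its 50-base windows are shared with other genes, among them the pseudogene Gpx4-ps2.

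Glutathione is made by glutamate-cysteine ligase, of which Gclc is the catalytic and Gclm the modifier subunit, and then by glutathione synthetase (Gss). Gclm had the largest fall of the group in Tnfr2-/-, from 63.7 and 56.6 FPKM in WT to 14.6 and 8.57 FPKM, with 17.6 and 13.8 FPKM in Tnfr1-/- MDSCs (log2 changes −2.32 in Tnfr2-/- and −1.88 in Tnfr1-/-, standard error 0.26, limma adjusted p = 0.000795 and 0.00145). It was called after scaling in Tnfr2-/- (−1.36) and not in Tnfr1-/- (−0.77). Gclc fell less, from 15.8 and 15.3 FPKM in WT to 6.39 and 7.16 FPKM in Tnfr1-/- and 5.13 and 6.93 FPKM in Tnfr2-/- MDSCs, and was not called after scaling (−0.05 in Tnfr1-/- and −0.34 in Tnfr2-/-). Gclm was 4.03 and 3.69 times as high as Gclc in WT, 2.76 and 1.93 times in Tnfr1-/- and 2.85 and 1.24 times in Tnfr2-/- MDSCs, a ratio that was lower in each knockout sample. Gsr, the reductase that returns oxidized glutathione to use, was called lower in both knockouts (log2 changes −1.27 in Tnfr2-/- and −1.54 in Tnfr1-/-) but not after scaling (−0.29 and −0.42).

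The supply of NADPH and the turnover of glutathione were read from lists outside the 50 genes. Of 13 further NADPH genes 7 were listed, of which 6 in Tnfr2-/- and 7 in Tnfr1-/- were called lower than in WT (2 and 3 after scaling). The table as a whole had 57.1% (Tnfr2-/-) and 60.7% (Tnfr1-/-) called lower, and 21.0% and 22.1% after scaling. Pgd, of the pentose phosphate pathway, was at 333 ± 2.87 FPKM in WT, 180 ± 38.0 in Tnfr1-/- and 190 ± 41.2 in Tnfr2-/- MDSCs (SD, n = 2), and was not called after scaling (log2 changes 0.24 in Tnfr1-/- and 0.17 in Tnfr2-/-). Idh1, the cytosolic NADP-dependent isocitrate dehydrogenase, was called lower on either scale. Of 17 genes of glutathione turnover 10 were listed, 8 called lower and 1, Ggt1, higher in each knockout, and 5 and 1 after scaling. Anpep, an ectopeptidase that also acts on glutathione conjugates and is a surface marker of myeloid cells, went from 93.5 ± 7.18 FPKM in WT to 1.01 ± 0.12 in Tnfr1-/- and 1.81 ± 0.57 in Tnfr2-/- MDSCs.

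The 11 glutathione S-transferases, which join glutathione to electrophiles and lipid products, included the largest fall of the 50 genes on log2(FPKM + 1) in both comparisons. Gstm1 (chromosome 3, 108012255 to 108017973, minus strand), of the cytosolic mu class, was at 204 and 174 FPKM in WT, 6.93 and 5.98 FPKM in Tnfr1-/- and 13.4 and 11.8 FPKM in Tnfr2-/- MDSCs. It was 15.0 times lower in Tnfr2-/- (log2 change −3.80, standard error 0.12, limma adjusted p = 2.04e-05) and 29.3 times lower in Tnfr1-/- than in WT (−4.67, adjusted p = 1.28e-05), and it kept the call after scaling (−2.83 and −3.58). Of its 50-base windows 23.1% also occur in other genes, among them Gstm3.

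Gstm2, its neighbour on chromosome 3, was at 9.25 and 8.06 FPKM in WT, was listed at 0 in both Tnfr1-/- samples and in Tnfr2-/- replicate 1, and was at 0.088 FPKM in Tnfr2-/- replicate 2. With a pseudocount of 0.1 in place of 1, Gstm2 fell further than Gstm1, by log2 changes of −5.995 against −3.89 in Tnfr2-/- and −6.45 against −4.85 in Tnfr1-/-. Gsto1, an omega class enzyme that also reduces dehydroascorbate, went from 163 and 166 FPKM in WT to 12.1 and 15.1 FPKM in Tnfr1-/- and 22.6 and 31.6 FPKM in Tnfr2-/- MDSCs. The membrane enzyme Mgst1 was the most expressed of the group over the 6 samples and changed less, at 199.8 and 199.5 FPKM in WT, 119 and 98.6 FPKM in Tnfr1-/- and 159 and 124 FPKM in Tnfr2-/- MDSCs. It was called lower in Tnfr1-/- (log2 change −0.88, standard error 0.16, limma adjusted p = 0.00383) and not called in Tnfr2-/- (−0.51, adjusted p = 0.0281, under the fold threshold), and after scaling its changes were 0.26 in Tnfr1-/- and 0.48 in Tnfr2-/-, not called. Its relative Mgst3 was called lower on either scale, and Mgst1 was 10.6 and 11.0 times as high as Mgst3 in WT and between 40.9 and 53.4 times in the knockout samples.

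**Figure D4:**
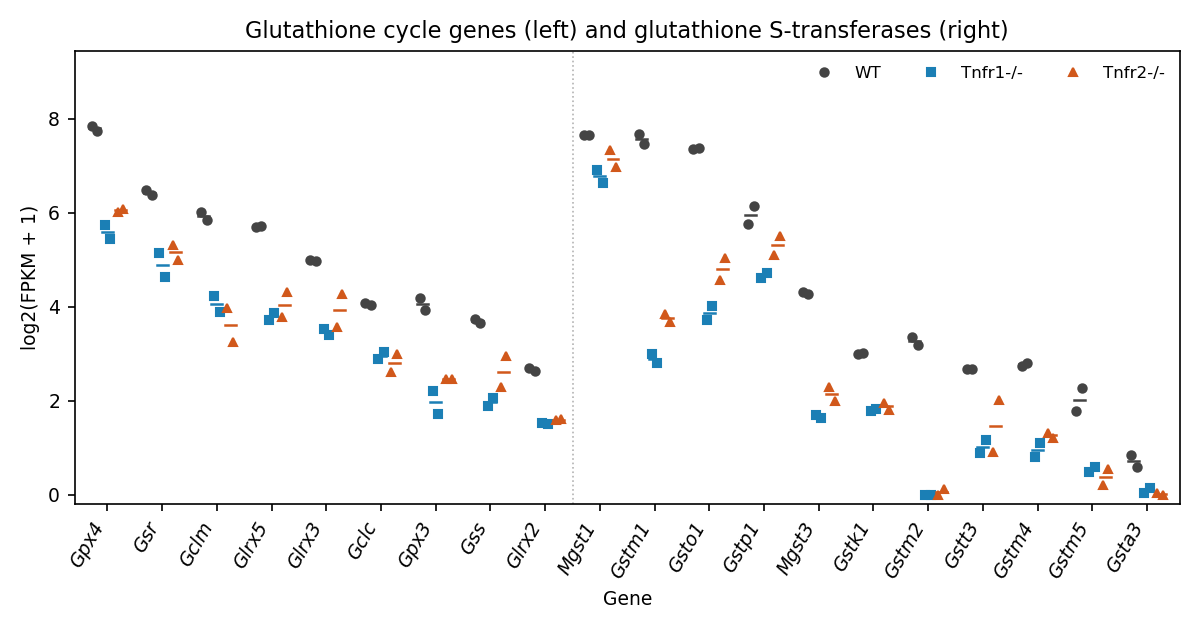
log2(FPKM + 1) of the glutathione cycle genes (left of the dotted line) and the glutathione S-transferases (right) in each sample, with points for samples and bars for group means of 2. Gstm1 drops from 204 and 174 FPKM in WT to between 5.98 and 13.4 FPKM in the knockouts, Gstm2 is at or near 0 in the knockouts, and Mgst1 stays at 98.6 FPKM or more in each sample.

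Between the knockouts the differences were small, and most pointed to higher levels in Tnfr2-/- than in Tnfr1-/- MDSCs. Gstm1 was the only one of the 50 genes called, higher in Tnfr2-/- (log2 change 0.87, standard error 0.12, limma adjusted p = 0.0416), and 0 were called lower, where 0.842% of all listed genes were called higher and 0.610% lower. The call of Gstm1 was not firm: its adjusted p ranged from 0.0273 to 0.160 over the alternatives other than leaving out a sample, and was 0.0578 after median-ratio scaling (log2 change 0.75). Gsto1 had the largest difference on log2(FPKM + 1) (log2 change 0.93, standard error 0.19, limma adjusted p = 0.0721). The means were 6.46 ± 0.67 FPKM in Tnfr1-/- and 12.6 ± 1.13 in Tnfr2-/- for Gstm1, and 13.6 ± 2.12 and 27.1 ± 6.39 for Gsto1 (SD, n = 2).

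Of the 50 genes, 44 had a positive log2 change in Tnfr2-/- against Tnfr1-/- and 6 a negative one, with a median of 0.24, where 5166 of all listed genes were positive and 2867 negative, with a median of 0.06. For 25 genes the 2 Tnfr2-/- samples lay above both Tnfr1-/- samples and for 0 below, where 34.9% of all listed genes lay above and 16.1% below. An unadjusted p under 0.05 was reached by 13 genes, each higher in Tnfr2-/- (15.9% of all listed genes higher, 8.01% lower). After median-ratio scaling 36 genes were positive and 14 negative, with a median of 0.11, where 3631 of all listed genes were positive and 4402 negative, with a median of −0.015. None of the 50 was then called by limma in either direction, where 1.09% of all listed genes were called higher and 1.45% lower. The lowest values on log2(FPKM + 1) as deposited were those of Nqo1 (−0.48, standard error 0.27) and Gclm (−0.44, standard error 0.26), neither called. The mean FPKM ran WT, Tnfr2-/-, Tnfr1-/- from high to low in 42 genes, WT, Tnfr1-/-, Tnfr2-/- in 6, and Tnfr2-/-, Tnfr1-/-, WT in the other 2.

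**Figure D5:**
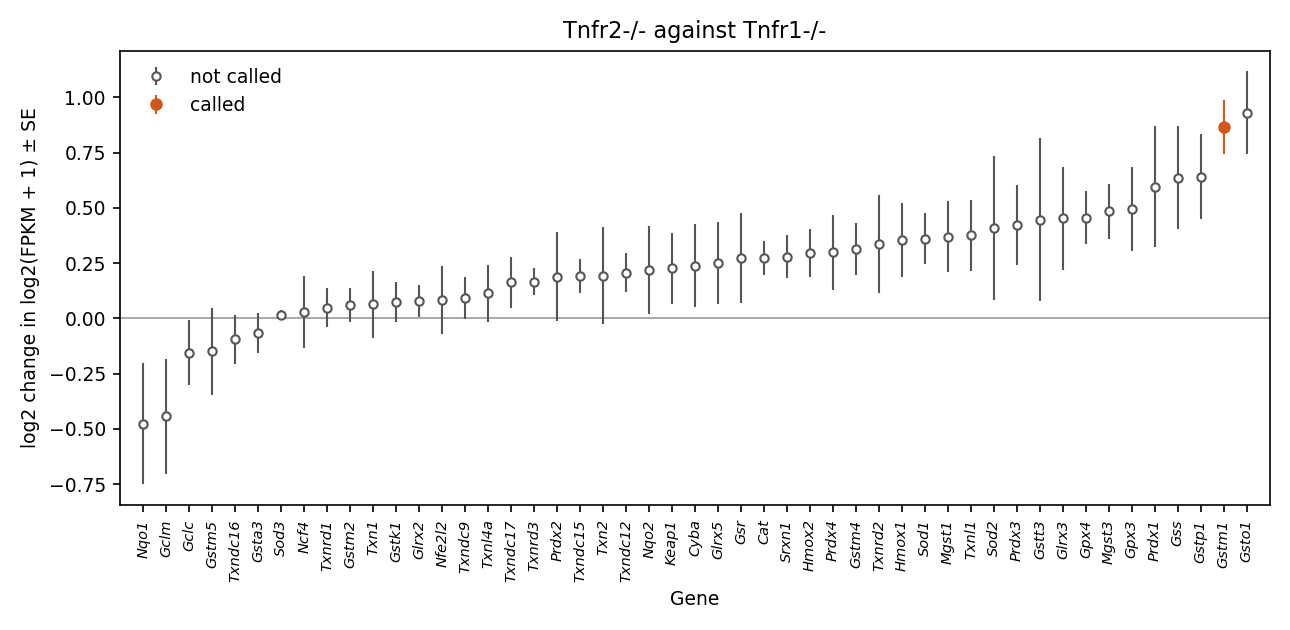
log2 change in log2(FPKM + 1) of Tnfr2-/- against Tnfr1-/- MDSCs for 49 genes, in order of size, with bars of 1 standard error from limma. The values run from −0.48 (Nqo1) to 0.93 (Gsto1), 43 lie above 0, and only Gstm1 (0.87) was called.

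The Tnfr2-/- samples were the most uneven pair. On log2(FPKM + 1) the root mean square SD over the 50 genes was 0.11 in WT, 0.16 in Tnfr1-/- and 0.29 in Tnfr2-/-. The standard errors and adjusted p pool the 3 groups, so on average they understate the spread of Tnfr2-/-. Tnfr2-/- replicate 2 lay above replicate 1 in 32 of the 50 genes, among them Prdx1 (148 against 84.5 FPKM) and Sod2 (18.2 against 9.07 FPKM). The share of all listed genes higher in replicate 2 was not counted. All listed genes summed to 155248 FPKM in replicate 2 and 148956 in replicate 1, but the 50 genes to 1866 and 1942 FPKM. Replicate 2 also had fewer granulocyte transcripts (1522 against 2450 FPKM summed) and more B cell transcripts (301 against 174 FPKM). Among the B cell markers Cr2 went the other way (2.16 against 7.50 FPKM). Without Tnfr2-/- replicate 1, 8 genes were called higher in Tnfr2-/- than in Tnfr1-/-: Gsto1, Prdx1, Gstt3, Gss, Sod2, Glrx3, Gstm1 and Prdx3, with log2 changes from 0.68 to 1.17, where 6.53% of all listed genes were called higher and 1.55% lower. Tnfr2-/- was then 1 sample, whose spread was taken to be that of the other groups. Without Tnfr2-/- replicate 2, 0 were called, where 1 of all listed genes was called higher and 1 lower. The 5 listed monocyte markers (of 7) also separated the knockouts, with sums of 307 and 362 FPKM in Tnfr1-/- and 587 and 725 FPKM in Tnfr2-/- MDSCs, and the 3 granulocyte markers went the other way, with 3070 and 2732 FPKM against 2450 and 1522 FPKM. The 12 macrophage markers summed to 353 and 414 FPKM in Tnfr1-/- and 639 and 729 FPKM in Tnfr2-/-. In FPKM this difference was carried mostly by Apoe (140 and 168 against 359 and 454 FPKM). Apoe, Cd68 and Adgre1 were called higher, 3 of the 12 (0.842% of all listed genes), and 2, Apoe and Cd68, after median-ratio scaling (1.09%). Of the 12, 8 had a positive log2 change and 4, C1qa, C1qc, Mertk and Vcam1, a negative one. The part of these cells in the differences between the knockouts was not tested.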

How the data were processed

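The authors isolated splenic MDSCs with a sorting step, extracted RNA, prepared SMARTER libraries, sequenced single-end reads of 50 bases, and deposited FPKM values with 1 p-value per gene. Per the labels, the authors' processing notes name FastQC, edgeR and mm10. The aligner and the tool behind the FPKM values are not given in the sources used here. The p-values deposited by the authors matched a one-way ANOVA on the 3 genotypes, recomputed here for the 8191 genes and within 1 percent in each, and were used for nothing else. Nothing in the labels pairs samples across genotypes, and the study's supplementary text speaks of 2 independent experiments without saying which samples belong to each, so p-values measure the spread between pools, experiments included.

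The FPKM as deposited were tested on log2(FPKM + 1), a scale that understates the change of low genes, by the moderated two-sided test of limma 3.58.1 (R 4.3.3), with a trend in eBayes. The smallest two-sided p that an exact test allows with 2 samples on each side is 0.333. The fit was also run on simulated data. These held no shift of the whole table, no unequal spread between groups and no picking of genes by ANOVA. That run therefore does not bear on these features of the real values. No filter was applied, so all 50 genes were tested and counted, and 1 of them is not reported here by itself. The genes, lists and tests were chosen with earlier results of these data known. Values in every sample were given by rule for oxidase subunits, the superoxide dismutases, Cat, Nfe2l2, Keap1, Hmox1 and Nqo1, each gene called between the knockouts, and in each role group the largest rise and fall in Tnfr2-/- and the highest mean. Srxn1, Prdx2, Gclc, Gstm2, Gsto1 and the ratios were added after their values were seen, as was the list of genes called without Tnfr2-/- replicate 1. Positions and shared windows are from GENCODE (GRCm38), where all 50 symbols matched. Other steps ran in Python 3.11.15 (NumPy 2.4.6, matplotlib 3.10.9, SciPy 1.17.1).

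The alternatives were a pseudocount of 0.1, a mean of at least 1 FPKM, only the 2 groups compared, median-ratio size factors, quantile normalization, the replicate number as a block, no trend in eBayes, no fold threshold or 2, and each sample left out.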

Additional observations from a re-analysis of the deposited data

How the results depend on the processing

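The calls against WT depended most on the scaling. The count called lower in Tnfr2-/- was 43 as reported, 18 after median-ratio scaling and 20 after quantile normalization, and in Tnfr1-/- 46, 19 and 22. The calls of the whole table moved too. As reported and after median-ratio scaling, 57.1% and 21.0% of all listed genes were called lower in Tnfr2-/-, and 60.7% and 22.1% in Tnfr1-/-. The matching shares for the other settings are not given here. At a fold of 2 it was 33 and 39, and with each sample left out 35 to 43 in Tnfr2-/- and 44 to 46 in Tnfr1-/-. In Tnfr2-/- the median against WT was −1.40 with a pseudocount of 0.1, −0.40 with median-ratio and −0.48 with quantile scaling, and −1.40 to −1.14 with each sample left out. In Tnfr1-/- it was −1.68, −0.46 and −0.55. Between the knockouts the median was 0.11 and 0.13 under the scalings and at least 0.17 with a sample left out. Under the 3 scalings alike, 2 genes were called higher and 18 lower in Tnfr2-/-, and 2 and 19 in Tnfr1-/-.

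Among the genes reported by name, median-ratio scaling turned the sign in Tnfr2-/- against WT of Gstp1 (0.32), Keap1 (0.12), Mgst1 (0.48), Nqo2 (0.25), Prdx3 (0.17), Prdx4 (0.19), Sod1 (0.75), Txn1 (0.27), Txndc12 (0.32), Txndc16 (0.31) and Txnl1 (0.074), and quantile normalization that of Gstp1 (0.20), Mgst1 (0.54), Nqo2 (0.094), Prdx3 (0.015), Prdx4 (0.018), Sod1 (0.75), Txn1 (0.43), Txndc12 (0.14) and Txndc16 (0.15). In Tnfr1-/- against WT, median-ratio scaling turned Keap1 (0.023), Mgst1 (0.26), Nqo2 (0.15), Prdx4 (0.029), Sod1 (0.54), Txn1 (0.36), Txndc12 (0.25) and Txndc16 (0.54), and quantile normalization Mgst1 (0.31), Sod1 (0.53), Txn1 (0.59), Txndc12 (0.078) and Txndc16 (0.34). The scalings also moved the median of all listed genes. In Tnfr2-/- against WT it went from −0.74 to −0.032 (median-ratio) and −0.047 (quantile). In Tnfr1-/- against WT it went from −0.83 to −0.033 and −0.063. A turned sign is to be read beside that shift.

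Between the knockouts, 1 gene was called as reported. It was 2 with a mean of at least 1 FPKM, and 0 with only the 2 groups in the model, with eBayes without trend, with median-ratio scaling and at a fold of 2, and 0 to 8 with each sample left out. With the replicate number as a block, 0 genes were called between the knockouts, and 43 and 46 stayed lower against WT. The replicate difference correlated between groups with r of 0.022 to 0.046 over all genes and 0.25 to 0.35 over the 50. The study speaks of 2 experiments but no source ties a replicate number to one, so whether the numbers pair the samples is not known. Leaving out WT replicate 1 took the call in Tnfr2-/- against WT from 8 genes and leaving out WT replicate 2 from 6. Read depth was not used here, so no limit from counting can be given.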
